A study of Mus musculus with 4 samples.

Results

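The 10 genes described here encode matricellular and wound response proteins: Spp1, Timp1, Ctgf, Cyr61, Thbs1, Tnc, Postn, Sparc, Lox and Fn1. They were taken by gene name from the authors' table of 48316 gene names, and all 10 were found, each on 1 row with the status OK in both groups. The genes were selected on the FPKM values of the same 2 groups, with their ratios known, so their values are a description and no test supports them. The RNA came from cardiomyocytes, the beating muscle cells of the heart, freed by Langendorff perfusion, in which enzyme is passed through the coronary vessels. Both groups were mice of a C57BL x FVB background given doxycycline in the diet for 3 days. The MHC group (2 libraries) carried the genotype labelled MHC, and the Rbfox2_OE group (2 libraries) carried the genotype labelled RbFox2, which overexpresses the splicing regulator RBFOX2. The labels do not name the promoter behind either genotype, the sex or age of the mice, or whether the libraries came from separate hearts. The table gives 1 pooled value per gene and group, in FPKM (fragments per kilobase, scaled for depth in a way that is not stated), with a lower and an upper bound. No value per library was given, so neither a replicate spread nor a test could be had, and every difference below has no replicate check. A difference carried by 1 library of a group cannot be told apart from one carried by both. The read depth is unknown, and the level of the authors' bounds is not stated.

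Matricellular proteins are secreted into the extracellular matrix but do not build it; they bind matrix, growth factors and cell surface receptors and alter how cells attach, migrate and signal. Most are low in the resting adult heart and are known to appear after injury or pressure overload, made by activated fibroblasts, macrophages, vascular cells and, for some, stressed cardiomyocytes. Alongside them stand matrix proteins and enzymes of repair: fibronectin forms a provisional scaffold, lysyl oxidase crosslinks collagen and elastin, and TIMP1 inhibits matrix metalloproteinases.

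Of the 10 genes, 8 were at least 2-fold higher in Rbfox2_OE and 0 were at least 2-fold lower, where the fold was computed on FPKM with a pseudocount of 1. Among all 11697 genes that averaged 1 FPKM or more across both groups, 6.97% were at least 2-fold higher and 10% at least 2-fold lower. Spp1, Tnc and Lox were under 1 FPKM in MHC and met that mean only through Rbfox2_OE. Their place among the genes counted as higher was thus partly set by the filter. The same 8 genes had bounds that did not overlap between groups, in the higher direction, as did 6.67% of all genes compared, and 0 had separate bounds in the lower direction, against 9.33% of all genes. Spp1, the gene of osteopontin, stood near 0 in MHC and at 40.4 FPKM in Rbfox2_OE, and Timp1 at 3.49 and 112 FPKM. Sparc was 1.84 times as high with overlapping bounds, and Cyr61 was the 1 gene with a lower value. The median log2 ratio of the 10 genes was 1.97, beside -0.06 over all genes compared. Since the genes were chosen with these values in view, their share is given beside the background without being read against it.

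Promoter sequences were matched in the RefSeq table (build GRCm38.p6) for 6 of the 10 genes, and 4 are shown: the 3 genes with the largest plain ratios, Spp1, Tnc and Timp1, and Cyr61, the gene with the lower value. Each line holds the 250 bases before the annotated start site on the coding strand, from 5′ to 3′. Capitals mark matches, on either strand, to the motifs TATAAA (the TATA box), GGAATG (bound by TEAD factors, the partners of YAP and TAZ), AACCACA (bound by RUNX factors), TGANTCA (bound by AP-1) and the CArG box of SRF. None of the marked matches overlaps another.

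Spp1, chr5:104434861-104435110, plus strand: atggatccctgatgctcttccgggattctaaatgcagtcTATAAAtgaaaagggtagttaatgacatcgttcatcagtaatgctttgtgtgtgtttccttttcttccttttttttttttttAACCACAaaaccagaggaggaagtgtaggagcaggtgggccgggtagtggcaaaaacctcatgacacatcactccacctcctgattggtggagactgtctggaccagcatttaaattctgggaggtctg
Tnc, chr4:64047016-64047265, minus strand: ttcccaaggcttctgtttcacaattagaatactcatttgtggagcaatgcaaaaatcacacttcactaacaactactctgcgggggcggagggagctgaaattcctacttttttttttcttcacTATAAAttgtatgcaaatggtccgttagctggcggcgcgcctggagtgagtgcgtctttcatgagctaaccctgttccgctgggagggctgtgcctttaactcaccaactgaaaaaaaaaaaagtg
Timp1, chrX:20869916-20870165, plus strand: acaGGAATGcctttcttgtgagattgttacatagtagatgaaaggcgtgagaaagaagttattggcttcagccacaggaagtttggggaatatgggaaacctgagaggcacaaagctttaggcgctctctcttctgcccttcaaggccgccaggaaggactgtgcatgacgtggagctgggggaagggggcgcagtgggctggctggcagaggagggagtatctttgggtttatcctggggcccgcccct
Cyr61, chr3:145649986-145650235, minus strand: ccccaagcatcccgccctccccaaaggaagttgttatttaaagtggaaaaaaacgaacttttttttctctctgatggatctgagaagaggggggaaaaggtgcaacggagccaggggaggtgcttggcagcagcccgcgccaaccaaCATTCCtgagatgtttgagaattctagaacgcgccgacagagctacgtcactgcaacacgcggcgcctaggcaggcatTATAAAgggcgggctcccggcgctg

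In the Cyr61 sequence the TATAAA match began 25 bases and the TEAD match, in reverse orientation, 103 bases before the start site. The Postn window, which is not shown, held TATAAA at nearly the same place, 26 bases before the start, so this position was not confined to the gene with the lower value. The Spp1 sequence held TATAAA 211 bases and AACCACA 129 bases before the start, Tnc held TATAAA 126 bases before it, and Timp1 held GGAATG 247 bases before it. Over 32851 promoter windows of the same length, TATAAA was present in 12.4%, GGAATG in 12.6%, AACCACA in 4.40%, TGANTCA in 6.75% and the CArG box in 1.47%. TGANTCA and the CArG box had no match in the 6 windows. The Sparc window, with no match to any of the motifs, has its start site 3103 bases inside the gene as GENCODE annotates it, while the other 5 start sites lie within 7 bases of the GENCODE start. A match is a stretch of letters in this window and is not evidence of binding, and both the gene with the lower value and Timp1 carried the TEAD letters.

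The overexpressed gene served as a check of the labels. Rbfox2 stood at 14.7 FPKM in MHC (bounds 10.4 to 19.0) and at 293 FPKM in Rbfox2_OE (bounds 214 to 373). Cardiomyocyte transcripts dominated both groups: the summed level of 12 cardiomyocyte markers was 63486 FPKM in MHC and 38984 FPKM in Rbfox2_OE, with Myh6 listed at 0 in both because the authors' program returned no estimate. Transcripts of other cells were present in both groups and higher in Rbfox2_OE, with values given beside the results below. Rescaling the groups without mitochondrial genes and the 10 most abundant genes shifts Rbfox2_OE upward by 0.15 on the log2 scale, which moved the median of all genes from -0.06 to 0.07. Under that scaling 46.5% of the genes at least 2-fold apart were lower, in place of 59.0%.

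The 2 groups ordered the 10 genes differently. In MHC, Cyr61 and Sparc were the most abundant, and together they made up 80.2% of the summed level of the 10 genes, 412 FPKM. In Rbfox2_OE they made up 44.7% of a sum of 846 FPKM, and the other 8 genes summed to 81.6 FPKM in MHC and 468 FPKM in Rbfox2_OE. The highest and the lowest gene lay 2007-fold apart in MHC and 58.6-fold apart in Rbfox2_OE. In MHC 3 of the genes, Lox, Tnc and Spp1, were under 1 FPKM, against 0 in Rbfox2_OE.

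**Figure D1:**
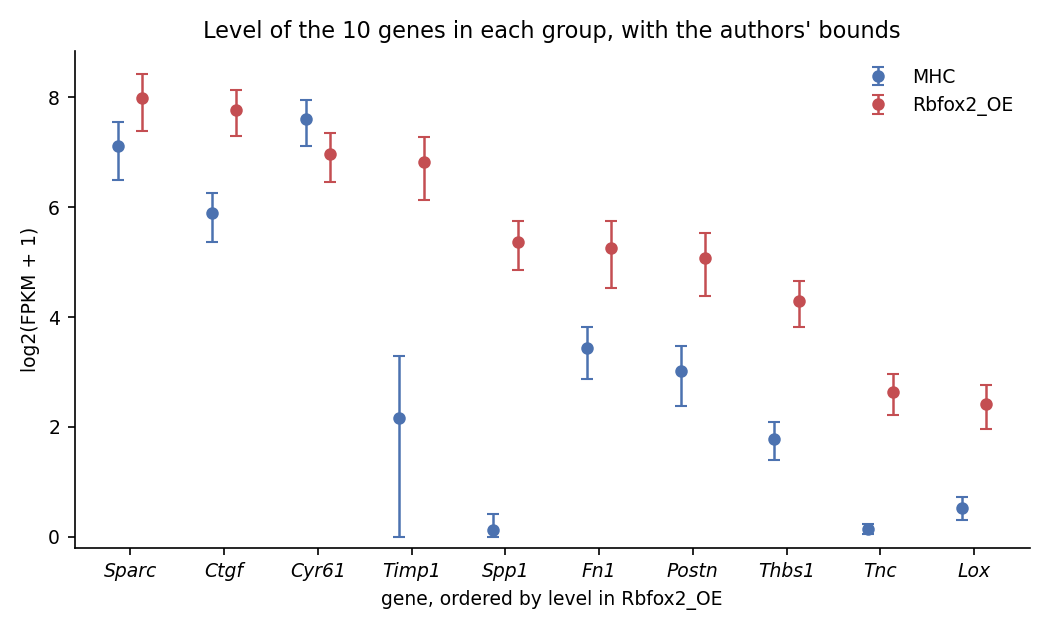
Levels of the 10 genes as log2(FPKM + 1) in MHC (blue) and Rbfox2_OE (red), ordered by the level in Rbfox2_OE; points are the authors' pooled values and bars their lower and upper bounds. The bars are separate for 8 genes and overlap for Sparc (137.7 and 254 FPKM) and Cyr61 (192 and 125 FPKM).

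Spp1 (ENSMUSG00000029304.14, GRCm38 chromosome 5, 104435118 to 104441050, plus strand) encodes osteopontin, a secreted phosphoprotein that binds integrins and CD44 and is made in quantity by activated macrophages. It stood at 0.0959 FPKM in MHC (bounds 0 to 0.330) and at 40.4 FPKM in Rbfox2_OE (bounds 27.9 to 52.9). The MHC value is close to 0 and its lower bound is 0, so the plain ratio of 422 is poorly determined. The log2 ratio with the pseudocount was 5.24, between 4.44 and 5.75 when taken from the nearest and the farthest bounds. Of all genes compared, 6 had a higher log2 ratio. These include Atp2a2, listed at 0 in MHC and at a log2 level of 9.81, with the pseudocount, in Rbfox2_OE. Whether that 0 stands for a missing estimate was not tested, so the rank may count genes without an estimate. Requiring status OK in both groups lowered the genes at least 2-fold higher from 815 to 813. In MHC Spp1 was the lowest of the 10 genes, and in Rbfox2_OE it was the fifth highest, above Fn1 and Postn.

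Timp1 (ENSMUSG00000001131.11, chromosome X, 20870166 to 20874735, plus strand) encodes an inhibitor of matrix metalloproteinases that is induced by inflammatory cytokines. It stood at 3.49 FPKM in MHC, with bounds of 0 to 8.75, and at 112 FPKM in Rbfox2_OE, with bounds of 69.3 to 154. The log2 ratio was 4.65, and the pairs of bounds gave 2.85 and 7.28, the widest range among the 10 genes. The gene lies within Syn1, a neuronal gene on the opposite strand that stood at 0.153 FPKM in MHC and 0.496 FPKM in Rbfox2_OE, far below the Timp1 value of Rbfox2_OE. Among the 4 TIMP genes, Timp1 was the lowest in MHC, with 3.95% of their summed level. In Rbfox2_OE it held 41.4% and was nearly level with Timp3, at 114 FPKM. The ratio of Timp1 to Timp3, in which the scaling of a group cancels, was 0.0645 in MHC (0 to 0.228 from the bounds) and 0.982 in Rbfox2_OE (0.466 to 1.95). Timp2 stood at 24.1 and 33.3 FPKM and Timp4 at 6.67 and 10.9 FPKM in MHC and Rbfox2_OE, both less than 2-fold apart.

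**Figure D2:**
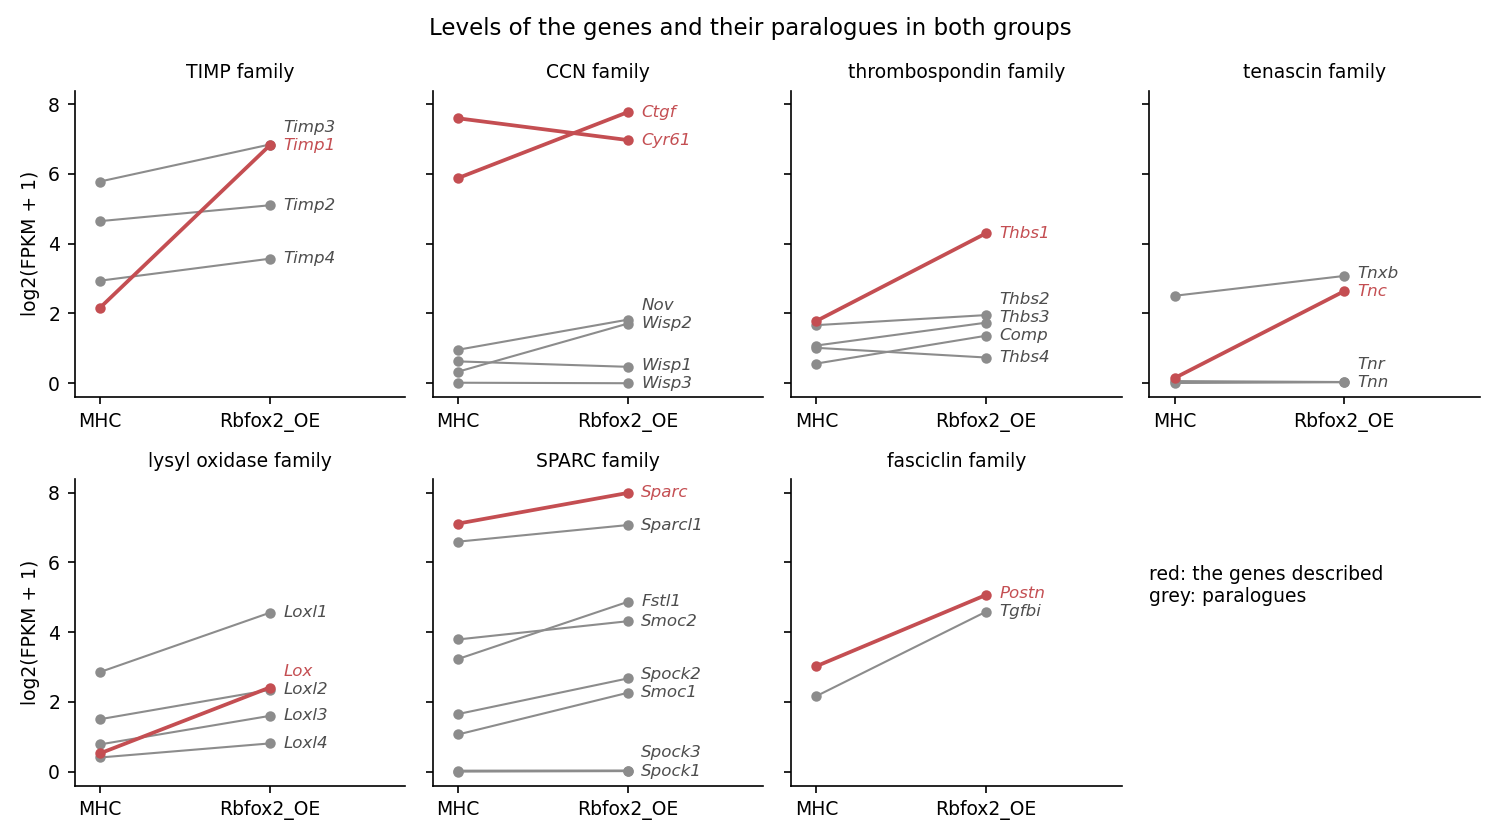
Levels as log2(FPKM + 1) of the genes described (red) and their paralogues (grey) in MHC and Rbfox2_OE, 1 panel per family; each line joins the pooled values of a gene and no error is drawn. Timp1 passes from the lowest of 4 TIMP genes to the level of Timp3, the lines of Ctgf and Cyr61 cross, and Thbs1 separates from the other thrombospondins.

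Ctgf and Cyr61 encode the growth-factor-binding proteins CCN2 and CCN1, a pair of closely related genes that are both textbook targets of YAP and TAZ and of mechanical load. Ctgf (ENSMUSG00000019997.11, chromosome 10, 24595442 to 24598683, plus strand) stood at 58.1 FPKM in MHC (bounds 40.4 to 75.7) and 218 FPKM in Rbfox2_OE (bounds 156 to 280). Its log2 ratio was 1.89, with 1.03 and 2.76 from the pairs of bounds, so even the nearest bounds were over 2-fold apart. An annotated transcript on the opposite strand, Gm15270, overlaps it and stood at 3.41 and 4.61 FPKM.

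Cyr61 (ENSMUSG00000028195.4, chromosome 3, 145646976 to 145649981, minus strand) differed in the other direction. It stood at 192 FPKM in MHC (bounds 138 to 247) and 125 FPKM in Rbfox2_OE (bounds 87.4 to 162). The value was 1.54 times as high in MHC, but the bounds overlap, and the pairs of bounds gave log2 ratios of -1.49 and 0.23 around the value of -0.62. Of all genes compared, 79.3% had a higher log2 ratio than Cyr61. In MHC Cyr61 was the most abundant of the 10 genes, and no other annotated gene overlaps it.

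The order of the pair differed between the groups. The ratio of Ctgf to Cyr61 was 0.302 in MHC, between 0.164 and 0.549 by the bounds, and 1.75 in Rbfox2_OE, between 0.962 and 3.20. These ranges do not overlap, and rescaling a group does not alter them. Of the summed level of the 6 CCN genes, Cyr61 held 76.3% in MHC and 35.8% in Rbfox2_OE, while Ctgf held 23.0% and 62.7%. The other CCN genes were low: Nov stood at 0.946 and 2.54 FPKM and Wisp2 at 0.259 and 2.27 FPKM, in MHC and Rbfox2_OE.

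Thbs1 (ENSMUSG00000040152.8, chromosome 2, 118111876 to 118127133, plus strand) encodes thrombospondin 1, which activates latent TGF-beta and binds CD36 and CD47. It stood at 2.45 FPKM in MHC (bounds 1.63 to 3.26) and 18.7 FPKM in Rbfox2_OE (bounds 13.1 to 24.3), a log2 ratio of 2.51. In MHC it was level with Thbs2, at 2.17 FPKM, and in Rbfox2_OE Thbs2 stood at 2.87 FPKM. The ratio of Thbs1 to Thbs2 was 1.13 in MHC (0.565 to 2.25 from the bounds) and 6.50 in Rbfox2_OE (3.44 to 12.5). Thbs1 took 33.8% of the summed level of 5 thrombospondin genes in MHC and 71.5% in Rbfox2_OE.

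Tnc (ENSMUSG00000028364.15, chromosome 4, 63959785 to 64047015, minus strand) encodes tenascin C, an anti-adhesive glycoprotein known in the heart at the edges of injured tissue. It stood at 0.108 FPKM in MHC (bounds 0.0426 to 0.173) and 5.23 FPKM in Rbfox2_OE (bounds 3.63 to 6.82). The plain ratio was 48.4, the second largest of the 10 genes, but adding the pseudocount of 1 brought the log2 ratio to 2.49, against 4.68 when 0.1 was added. Its relative Tnxb, a structural tenascin of connective tissue, was higher than Tnc in both groups, at 4.69 and 7.43 FPKM. Tnc held 2.23% of the summed tenascin level in MHC and 41.1% in Rbfox2_OE.

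Postn (ENSMUSG00000027750.16, chromosome 3, 54361109 to 54391037, plus strand) encodes periostin, known as a product of activated cardiac fibroblasts. It stood at 7.15 FPKM in MHC (bounds 4.18 to 10.1) and 32.5 FPKM in Rbfox2_OE (bounds 19.8 to 45.3), a log2 ratio of 2.04. Its paralogue Tgfbi, named for its induction by TGF-beta, stood at 3.50 and 23.0 FPKM, a log2 ratio of 2.42, and its bounds were separate too. The ratio of Postn to the collagen gene Col1a1 was 1.15 in MHC (0.513 to 2.39) and 1.43 in Rbfox2_OE (0.672 to 2.82), ranges that overlap.

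Sparc (ENSMUSG00000018593.12, chromosome 11, 55394500 to 55423183, minus strand) encodes osteonectin, a collagen-binding protein made by fibroblasts and endothelium. It stood at 137.7 FPKM in MHC (bounds 89.3 to 186) and 254 FPKM in Rbfox2_OE (bounds 165 to 342), where it was the most abundant of the 10 genes. The log2 ratio of 0.88 was under the 2-fold threshold and the bounds overlapped, with -0.17 and 1.93 from the pairs of bounds. After the rescaling described above the log2 ratio was 1.03, past the threshold. Sparcl1, its closest relative, stood at 95.8 and 134 FPKM, a log2 ratio of 0.48.

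Lox (ENSMUSG00000024529.13, chromosome 18, 52516067 to 52529867, minus strand) encodes the lysyl oxidase that crosslinks collagen. It stood at 0.441 FPKM in MHC (bounds 0.231 to 0.651) and 4.33 FPKM in Rbfox2_OE (bounds 2.90 to 5.76), the lowest level of the 10 genes in that group. The plain ratio was 9.82 and the log2 ratio 1.89. When 5 FPKM was added in place of 1, this became 0.78, under the threshold. Loxl1, which acts mainly on elastin, was higher than Lox in both groups, at 6.25 and 22.5 FPKM. The ratio of Lox to Loxl1 was 0.0705 in MHC (0.0280 to 0.153) and 0.192 in Rbfox2_OE (0.0990 to 0.365), ranges that overlap.

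Fn1 (ENSMUSG00000026193.15, chromosome 1, 71585520 to 71653200, minus strand) encodes fibronectin, present as a plasma form made by the liver and a cellular form made in tissue. It stood at 9.78 FPKM in MHC (bounds 6.36 to 13.2) and 37.2 FPKM in Rbfox2_OE (bounds 21.9 to 52.5). The log2 ratio was 1.83, and the nearest bounds gave 0.69, under the 2-fold threshold. The value covers the whole gene, so the spliced forms of fibronectin cannot be told apart here. The ratio of Fn1 to Col1a1 was 1.58 in MHC (0.781 to 3.12) and 1.64 in Rbfox2_OE (0.744 to 3.28).

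**Figure D3:**
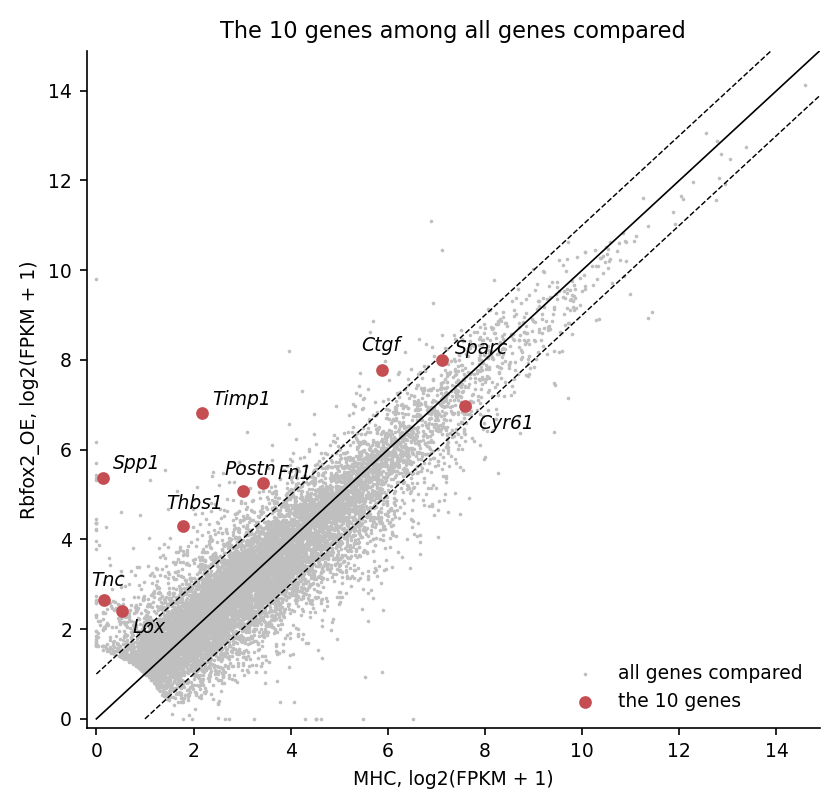
All 11697 genes compared (grey) and the 10 genes described (red), by log2(FPKM + 1) in MHC and in Rbfox2_OE; the solid line marks equal values and the dashed lines a 2-fold difference. Spp1 and Timp1 lie far above the upper dashed line (log2 ratios 5.24 and 4.65), Sparc lies just inside it, and Cyr61 lies below the solid line.

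The genes around the 10 were described from lists, with no test. List genes low in MHC, such as Wisp2 and Mmp12, entered the comparison only through their values in Rbfox2_OE. Of 27 other matricellular genes, 20 were compared; 9 were at least 2-fold higher and 0 lower, with a median log2 ratio of 0.93. Lgals3, the gene of galectin 3 and abundant in macrophages, stood at 2.16 FPKM in MHC and 32.9 FPKM in Rbfox2_OE, a log2 ratio of 3.42. Tgfbi (2.42, described with Postn above), Fstl1 (1.64) and Wisp2 (1.38) came next by the rule for naming, and their bounds were separate as well. None of the 20 stood 2-fold lower, as with the 10 genes themselves, while Lgals1, at 316 and 339 FPKM, was nearly equal in the groups.

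Of 26 collagens and other structural matrix genes, 25 were compared; 12 were at least 2-fold higher and 1 lower, with a median of 0.95. The largest log2 ratios with separate bounds were those of Col3a1 (2.13), Vcan (1.88), Bgn (1.76) and Col1a1 (1.72). Postn, Fn1 and Lox, at 2.04, 1.83 and 1.89, lay within that range. Of the 18 metalloproteinases and other TIMPs compared, 6 were at least 2-fold higher and 0 lower. Mmp12, the macrophage elastase, stood at 0.171 and 3.43 FPKM, and Mmp14, a membrane-bound collagenase, at 4.06 and 15.9 FPKM. Mmp19 had a log2 ratio of 1.39 and Timp3 of 1.06, while Mmp15, named after its value was seen, stood at 41.3 and 20.4 FPKM with separate bounds. In the Lox family, 1 of 3 relatives compared was at least 2-fold higher, Loxl1, with a log2 ratio of 1.70, and Loxl2 stood at 0.84 with separate bounds.

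Receptors of the 10 proteins were mixed: of 15 compared, 5 were at least 2-fold higher and 0 lower, with a median of 0.52. Those with separate bounds and the largest log2 ratios were the leukocyte integrin genes Itgam (2.33) and Itgb2 (1.99), the osteopontin and hyaluronan receptor Cd44 (1.58) and the syndecan Sdc4 (1.40). The integrin genes Itgb1, at 142 and 123 FPKM, and Itgav, at 4.17 and 4.76 FPKM, which bind osteopontin, periostin and fibronectin in many cells, were within 2-fold. Cd36, a thrombospondin receptor and the fatty acid transporter of cardiomyocytes, stood at 797 and 436 FPKM with overlapping bounds.

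Pathways known to act on these genes were listed as well. Of 19 TGF-beta signalling genes compared, 3 were at least 2-fold higher and 0 lower, with a median of 0.35. The ligand Tgfb2 stood at 1.22 and 4.59 FPKM and the receptor Tgfbr2 at 8.70 and 20.0 FPKM. Of 20 genes of YAP, TAZ and SRF signalling, 5 were at least 2-fold higher and 0 lower, with a median of 0.61. Acta2, the smooth muscle and myofibroblast actin, had a log2 ratio of 1.65, Amotl2 of 1.35, Lats1 of 1.01 and the cardiac stress gene Ankrd1 of 0.89, all with separate bounds. Of 18 wound and stress response genes compared, 9 were at least 2-fold higher and 2 lower, with a median of 1.02. The acute-phase genes Ptx3 and Lcn2 had log2 ratios of 2.91 and 2.61, the cytokine Il6 of 2.11 and the heme oxygenase Hmox1 of 1.94. The lower pair were Vegfa, at 141 and 50.8 FPKM, and the tissue factor gene F3, at 14.4 and 4.76 FPKM, named after their values were seen.

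**Figure D4:**
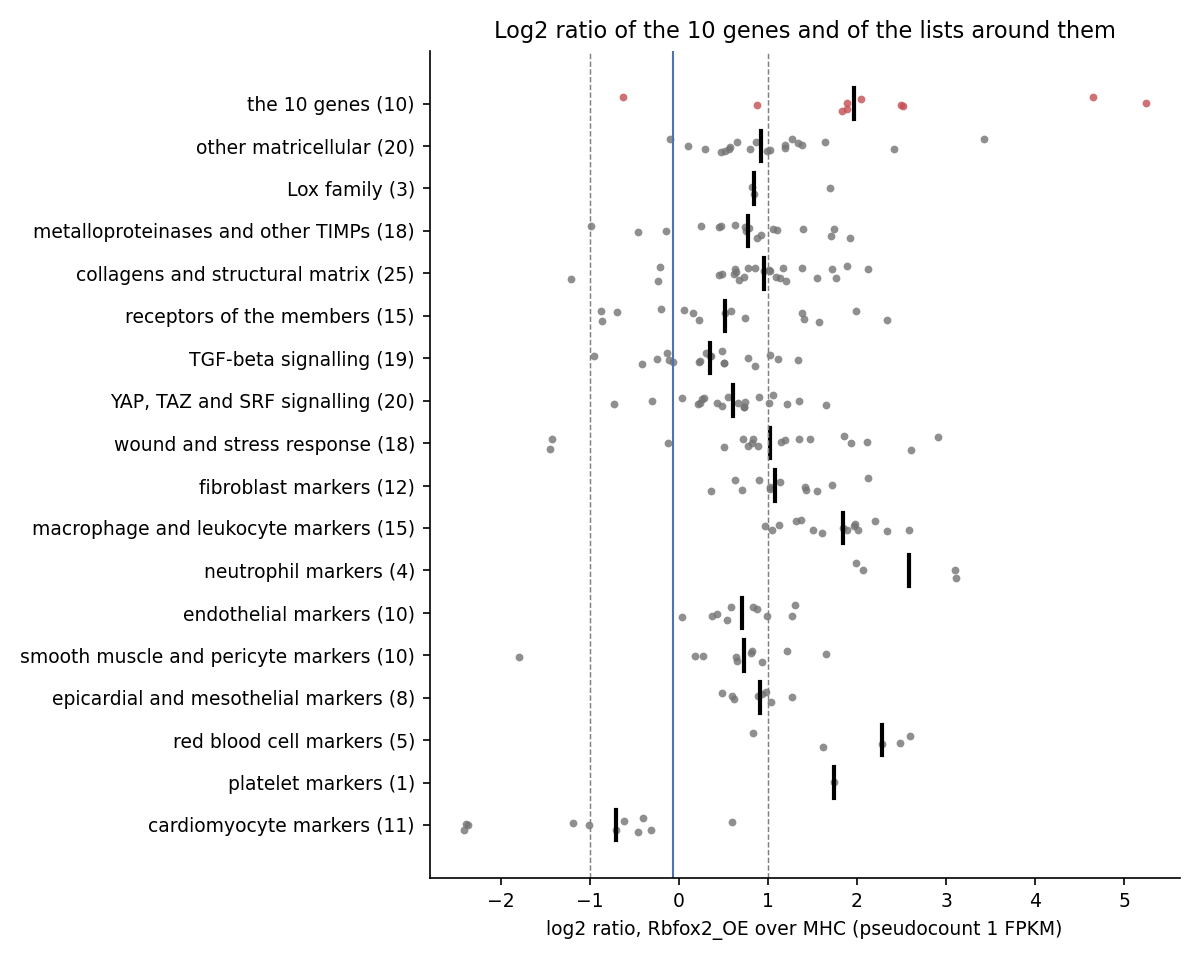
Log2 ratio of Rbfox2_OE over MHC, with a pseudocount of 1 FPKM, for the 10 genes (red) and the genes compared of each list (grey; number in brackets); black ticks are medians, the blue line the median of all genes compared and the dashed lines a 2-fold difference. The 10 genes have a median of 1.97 and range from -0.62 to 5.24. The list medians run from -0.70 for cardiomyocyte markers to 2.58 for neutrophil markers, of which 4 of 7 were compared.

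Most markers of other cells were higher in value in Rbfox2_OE alongside the 10 genes, and in a bulk sample more cells of a type and more RNA per cell cannot be told apart. All 12 fibroblast markers were higher in value in Rbfox2_OE, 8 of them at least 2-fold, and their sum was 499 FPKM in MHC and 988 FPKM in Rbfox2_OE. Of 15 macrophage and leukocyte markers, 14 were at least 2-fold higher, and their sum was 149 and 543 FPKM. The macrophage marker Cd68 stood at 3.77 and 20.9 FPKM, and Lyz2 at 41.3 and 170 FPKM. The 7 neutrophil markers summed to 9.03 and 94.4 FPKM, led by S100a9 and S100a8 with log2 ratios of 3.11 and 3.10. Only 4 of the 7 were compared, with a median log2 ratio of 2.58, against 1.99 without the filter on low values. Most of the neutrophil sum was S100a9, at 4.26 and 44.5 FPKM, and S100a8, at 3.19 and 35.0 FPKM. The 10 endothelial markers summed to 282 and 493 FPKM, the 10 smooth muscle and pericyte markers to 208 and 349 FPKM, and the 8 epicardial and mesothelial markers to 15.2 and 35.4 FPKM. In each of these lists only 2 markers were at least 2-fold higher. Bounds overlapped for 7 endothelial, 6 smooth muscle and pericyte, and 4 epicardial and mesothelial markers. The exception with a lower value was Abcc9 of the smooth muscle and pericyte list, which cardiomyocytes also express: it stood at 58.5 and 16.2 FPKM, a log2 ratio of -1.79 with separate bounds. The 5 red blood cell markers summed to 56.6 and 295 FPKM and the 5 platelet markers to 8.04 and 29.1 FPKM. Nearly all of the platelet sum was Pf4, at 7.34 and 26.9 FPKM, which was the 1 platelet marker compared. Among these lists 0 markers were listed at 0 in either group. The cardiomyocyte markers had a median log2 ratio of -0.70, with 5 of 11 compared at least 2-fold lower, among them Pln (-2.42) and Ryr2 (-2.39). The other 6 were within 2-fold with overlapping bounds, and of these Ttn was higher in value in Rbfox2_OE, at 166 and 252 FPKM. The part of these cells in the levels of the 10 genes was not tested.

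The 10 genes were also set against those marker sums within each group, which removes the scaling of the groups. These folds are plain ratios without the pseudocount, so their 2-fold counts are not on the same measure as the counts given earlier. Spp1 and Tnc were near 0 in MHC, so their folds on this footing are poorly determined. Timp1 had a lower bound of 0 in MHC, so its folds are poorly determined too. All 9 marker lists were used, and the share of all genes that would be higher against each sum was not computed. The counts against these sums thus describe the 10 genes without a background. Per 100 FPKM of summed fibroblast markers, Spp1 stood at 0.0192 FPKM in MHC and 4.09 FPKM in Rbfox2_OE, Tnc at 0.0216 and 0.529 FPKM, and Timp1 at 0.698 and 11.3 FPKM. Sparc was nearly equal, at 27.6 and 25.7 FPKM, and Cyr61 was lower, at 38.5 and 12.6 FPKM. On that footing 8 of the 10 genes were higher in Rbfox2_OE, 6 of them at least 2-fold, and the median gene was 3.08 times as high. Gsn and Dcn made up 80.3% of the fibroblast sum in MHC and 72.6% in Rbfox2_OE. Against the other 10 markers, an alternative chosen after seeing the data, 8 genes were again higher, 5 of them at least 2-fold without Postn, and the median gene was 2.21 times as high.

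Against the macrophage and leukocyte sum, 5 of the 10 genes were at least 2-fold higher, and the median gene was 1.67 times as high. Ctgf, at 39.1 and 40.1 FPKM per 100, and Fn1, at 6.58 and 6.86, were nearly equal on that footing, while Spp1 stood at 0.0645 and 7.45. Against the neutrophil sum, which differed most between the groups, 3 of the 10 genes were at least 2-fold higher, and the median gene was 0.583 times as high. Spp1, Timp1 and Tnc were thus higher against each of these 3 sums, and Cyr61 and Sparc were lower against each. The other 5 genes were higher against the fibroblast and the macrophage sums and lower against the neutrophil sum.

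Against the endothelial sum and against the smooth muscle and pericyte sum, 9 of the 10 genes were higher in Rbfox2_OE and 8 at least 2-fold, and Cyr61 was the gene that was lower in both cases. Against the epicardial and mesothelial sum and against the platelet sum, 8 genes were higher and 5 at least 2-fold. Against the red blood cell sum 5 were higher, 3 of them at least 2-fold, and the median gene was 1.17 times as high. Against the cardiomyocyte sum, which lacks Myh6, all 10 were higher, 9 of them at least 2-fold, and the lowest, Cyr61, was 1.05 times as high. That sum was itself 0.614 times as high in Rbfox2_OE, which raises any gene set against it. Of all genes compared, 79.3% had a higher log2 ratio than Cyr61, so a higher value against this sum is not particular to the 10 genes.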

How the data were processed

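Cardiomyocyte mRNA was sequenced (HiSeq4000, stranded TruSeq kit, per the labels' protocols) in 2 MHC and 2 Rbfox2_OE libraries, grouped by title. The deposited table holds 1 FPKM value for each gene in each group and a status, written by Cuffdiff per the file headers. The other deposited columns are the lower and upper bounds of these values, on the same scale. The submitters' processing notes name Cuffdiff 2.2.1 and STAR 2.4.2a among the tools and GRCm38 as build; the annotation, the normalization mode and whether counting used strand are not given in the sources used here. Cuffdiff divides fragments among overlapping genes, so the values of Timp1, Ctgf and 5 more of the 10 genes, which overlap an annotated gene, are uncertain to that extent. The genes overlapping those 5 stood at 0 to 0.0108 FPKM in both groups, except that of Lox, which had no value. FPKM values do not give the number of fragments, so neither counting intervals nor floors could be computed.

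From the deposited FPKM the log2 ratio of Rbfox2_OE over MHC was computed with a pseudocount of 1, which understates low genes. Rows of 110 repeated gene names, Itgam among them, were summed. Genes averaging 1 FPKM or more were compared and counted at 2-fold and where the authors' bounds did not overlap. The limma fit planned for values per library could not be made. The calculation was tested on simulated data made only from genes with higher levels in MHC. Spp1, Timp1, Thbs1, Tnc and Lox were below that level, so the test does not cover them. Coordinates are from GENCODE M21, matched by identifier without its version (99.2% of rows). Python 3.11.15, numpy 2.4.6 and pandas 2.3.3 were used.

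The 10 genes and the 17 lists were chosen with earlier results of these data known, and some genes stand in more than 1 list. The rule for naming list genes took up to 4 per list with the largest log2 ratio in size, status OK and separate bounds; paralogues and a few receptors are named besides. Alternatives covered the pseudocount, scaling, filters, status and the fold threshold. The number of unused columns of per-library values was 0.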

Additional observations from a re-analysis of the deposited data

How the results depend on the processing

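No paired analysis was possible because the libraries of a group are pooled in the deposited table, whose columns carry no replicate numbers; leaving out each library was not run for the same reason. The spread between libraries and the depth in reads remain unknown, which limits values near 0 most.

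Of the 10 genes, between 6 and 9 were at least 2-fold higher under the alternatives that kept that threshold, in place of 8. The 6 came with a minimum mean of 5 FPKM, which leaves out Tnc and Lox, the 7 with a pseudocount of 5, without Lox, and the 9 with rescaling, which adds Sparc. Rescaling also raised the count among all 11697 genes compared from 815 to 1038. The counts of the 10 genes are not read against those of all genes. A 4-fold threshold gave 5 genes higher. A 1.5-fold threshold gave 1 gene lower, Cyr61. Separate bounds in the higher direction held for 8 genes after rescaling too. Of 40 alternative log2 ratios of the 10 genes, 0 changed sign. A pseudocount cannot change a sign, and rescaling and centring shift all genes by nearly the same small amount. The absence of sign changes was thus largely fixed in advance. The authors' bounds with a pseudocount of 1 give a range, which 7 ratios left, all by another pseudocount. Ratios at another pseudocount are not on the measure of that range. Those outside it were for Spp1 7.69 with 0.1 and 3.16 with 5. For Tnc they were 4.68 with 0.1 and a value at the 2-fold threshold with 5. For Lox they were 3.03 with 0.1 and 0.78 with 5, and for Thbs1 1.67 with 5.

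Among all 11697 genes compared, 815 were at least 2-fold higher and 1172 lower as reported. Rescaling gave 1038 higher and 902 lower, and a pseudocount of 5 gave 304 and 559. A 1.5-fold threshold gave 1938 and 2582, and a 4-fold threshold 136 and 154. A minimum mean of 5 FPKM gave 492 and 920, over fewer genes whose number was not recorded. Of 119 alternative list medians 0 changed sign and 2 left the range from the bounds with a pseudocount of 1. These were red blood cell markers at 1.30 with a pseudocount of 5 and platelet markers at 0.25 without the filter on low values. Leaving out that filter brings in genes near 0. The limits given above for pseudocounts and scaling hold for these medians too.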
